A study of Macaca fascicularis with 2 samples.

Results

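Non-collagen proteins of the extracellular matrix, and the enzymes that crosslink or cut that matrix, were followed through 44 listed genes in calf muscle of the cynomolgus macaque, Macaca fascicularis. The genes were listed as small leucine-rich proteoglycans (7 genes), elastic fibre proteins with the latent TGF-beta binding proteins (15), adhesive and matricellular proteins (13), crosslinkers with a procollagen processing factor (4), and proteases with their inhibitors (5). The list was chosen with earlier results of these data known, so its difference from all tested genes is a description. All 44 were found among the 28175 genes of the deposited tables. Gastrocnemius RNA was sequenced in 2 libraries, 1 labelled lean, from a chow diet, and 1 labelled non-lean, from a high fat diet. The series asks which genes differ between lean and obese muscle. The labels give neither the age nor the sex of the animals, nor how many animals stand behind a library. The lean library held 15983348 estimated counts and the non-lean library 12731974. With 1 library per group there is no replicate check of any difference given here, no test was made, and the ratios compare these libraries rather than the diets.

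Skeletal muscle fibres are held in layers of connective tissue, which resident fibroblasts largely make. Small leucine-rich proteoglycans coat collagen fibrils and set their spacing, and several of them bind TGF-beta. Fibrillin microfibrils carry elastin and store latent TGF-beta through the latent TGF-beta binding proteins. Lysyl oxidases crosslink collagen and elastin, matrix metalloproteinases cut the matrix, and the tissue inhibitors of metalloproteinases restrain them.

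Matrix genes had lower values in the non-lean library across all 5 roles. Together the 44 genes held 49251 lean and 20289 non-lean counts. That is 0.308% of the lean counts (95% Clopper-Pearson interval 0.305 to 0.311) and 0.159% of the non-lean counts (0.157 to 0.162). Of the 44, 41 passed a filter on level and are called tested here. The filter was a mean of at least 1 CPM (counts relative to library size, with TMM scaling). All 41 had a log2 ratio (non-lean / lean) below 0, although EFEMP2 and DPT lay just above 0 when total counts replaced that scaling. A gene was called 2-fold lower when it was at least 2-fold lower and its 95% counting interval lay below 0. This held for 26 of the 41, against 7.16% of the 13707 tested genes, and 0 of the 41 were called 2-fold higher, against 4.91%. The intervals of 38 of the 41 lay below 0, against 28.8% of tested genes, and 0 lay above, against 25.8%. With total counts, 24 of the 41 were called lower, against 5.38% of tested genes, and 0 higher, against 6.72%. FBLN5 and TNC lost the call, at -0.86 and -0.97, and 36 intervals lay below 0. The median log2 ratio of the 41 was -1.29, and that of all tested genes was -0.01 with quartiles of -0.39 and 0.34. In bulk tissue fewer cells of a type and less RNA per cell cannot be told apart.

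**Figure D1:**
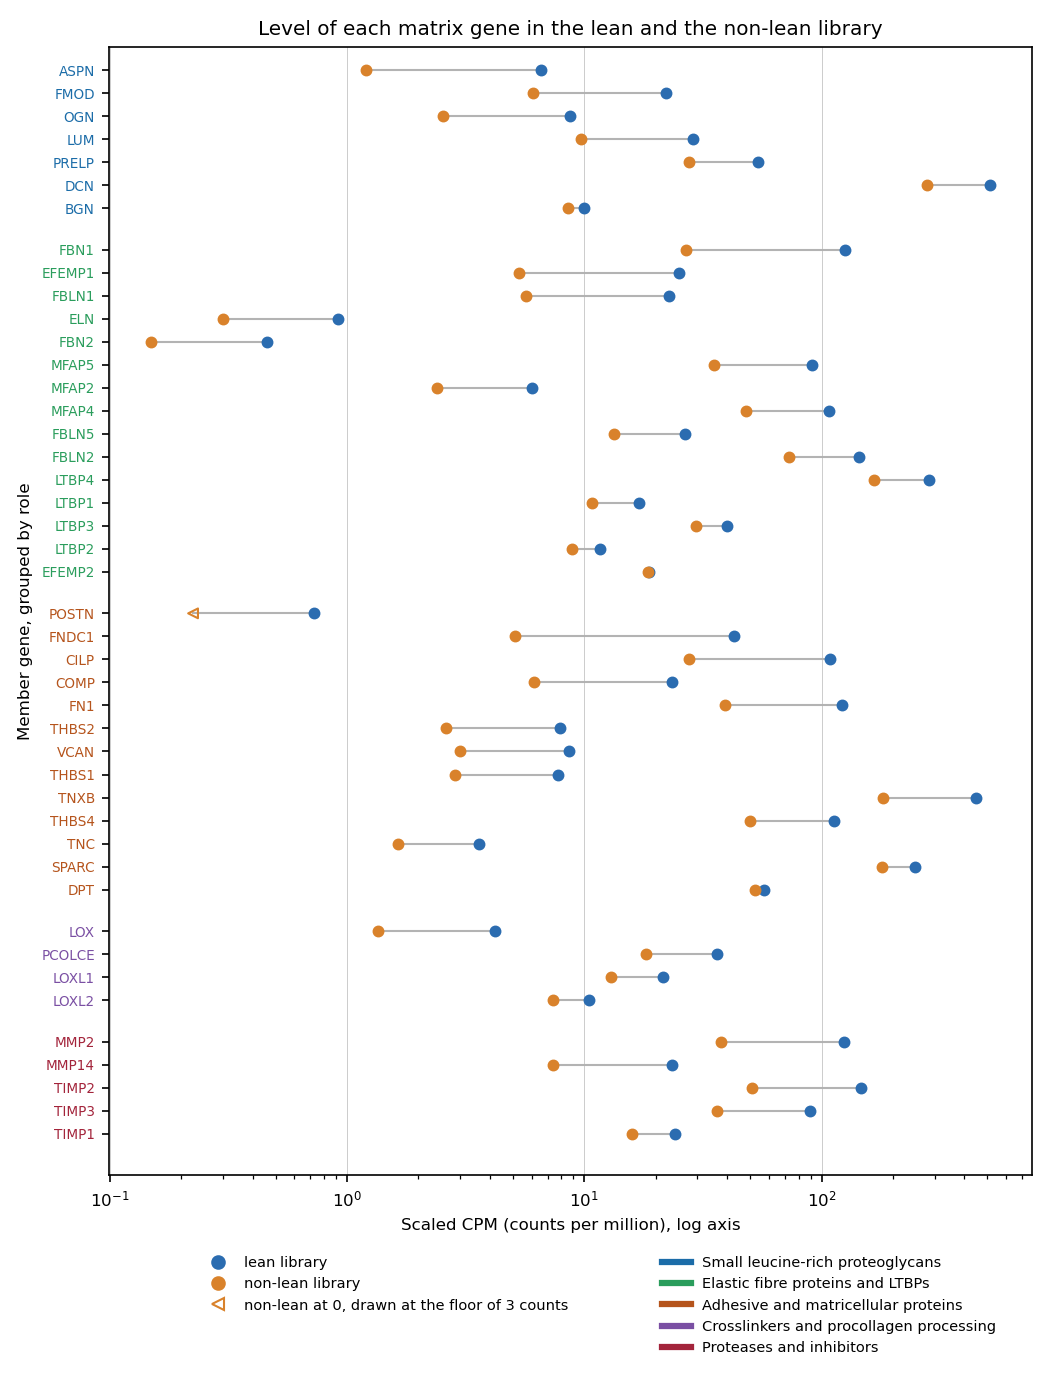
Scaled CPM (log axis) of each of the 44 genes in the lean library (blue) and the non-lean library (orange), grouped by role; POSTN, at 0 in the non-lean library, is drawn as an open triangle at the floor of 3 counts. The lean point lies to the right of the non-lean point for all 44 genes, with EFEMP2, DPT and BGN closest together.

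**Figure D2:**
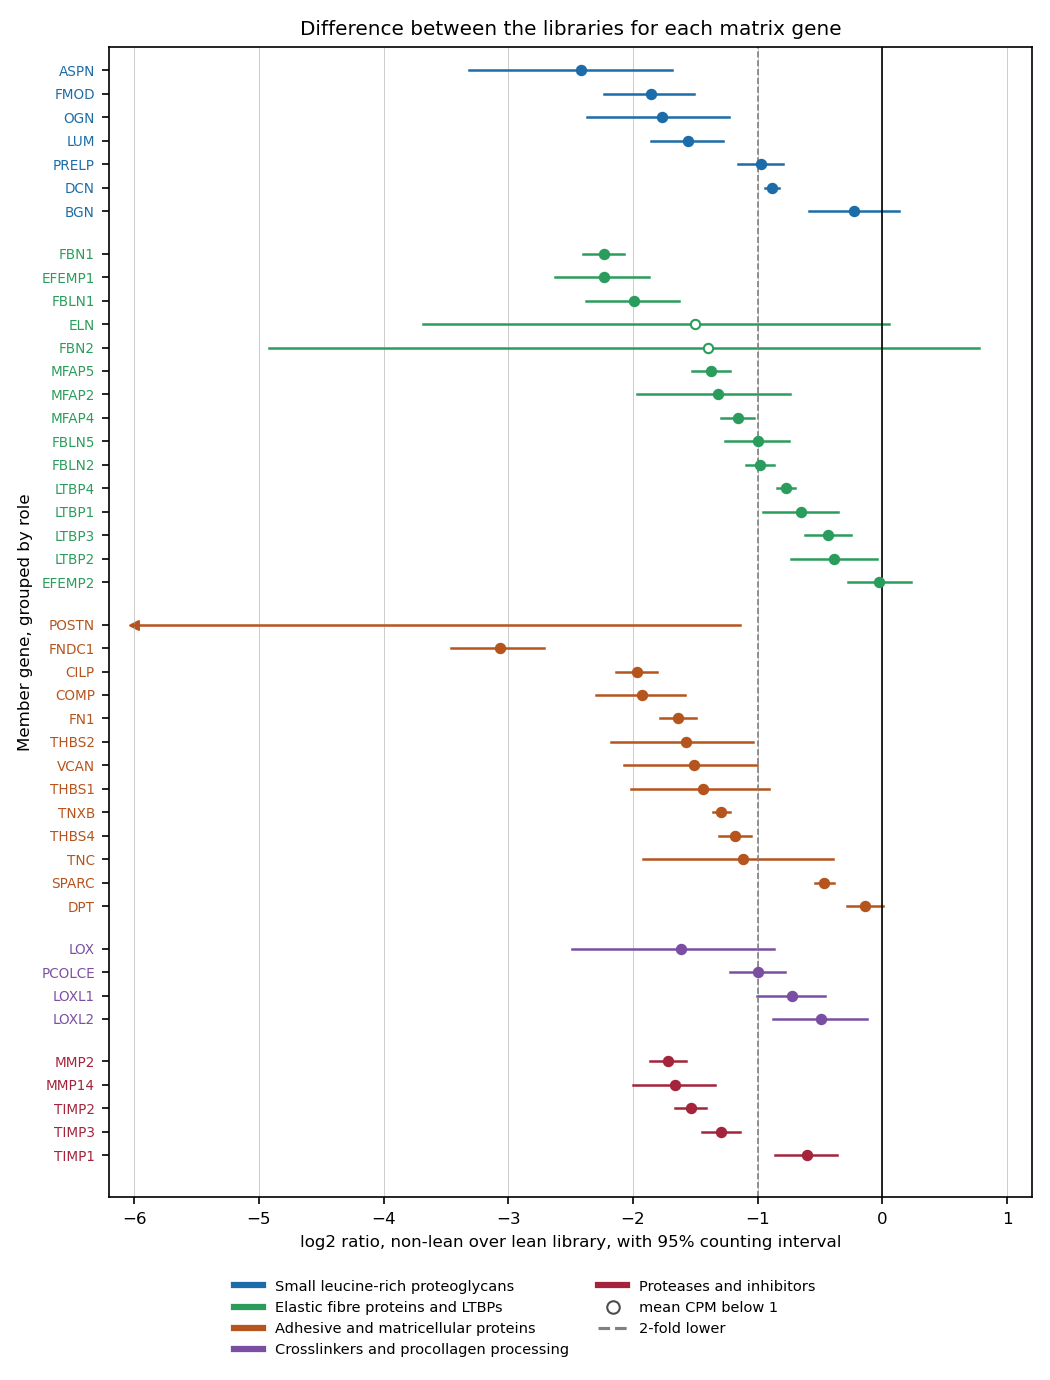
Log2 ratio (non-lean / lean) for each gene (point) with its 95% counting interval (line); open points are genes with a mean below 1 CPM, and the dashed line marks 2-fold lower. FNDC1 has the lowest point among the tested genes at -3.07. The intervals of BGN, EFEMP2 and DPT reach across 0, and so do those of ELN and FBN2, which have open points. POSTN has no point, and its interval is cut at the left edge with a triangle.

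Differences among the members were wider than counting error. Among tested members, 4 were at least 4-fold lower, namely FNDC1, ASPN, FBN1 and EFEMP1. A further 22 were 2-fold to 4-fold lower, 12 were less than 2-fold lower with intervals below 0, and 3 had intervals that held 0. At the 2-fold threshold, FBLN5 lay just inside at -1.001 with TNC next at -1.12, and PCOLCE, FBLN2 and PRELP lay just outside at -0.998, -0.98 and -0.97. The ratio of a member to a related member within a library does not depend on scaling. For 30 related pairs, chosen with the values known, the counting interval of the change in that ratio excluded 0 for 16 and held 0 for 14.

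The small leucine-rich proteoglycans had a median log2 ratio of -1.56, with 6 of 7 intervals below 0 and 4 of 7 genes called 2-fold lower. Asporin, ASPN, which binds collagen and TGF-beta, had 100 lean and 16 non-lean counts (6.57 and 1.197 CPM), a log2 ratio of -2.42 [-3.32, -1.69]. Fibromodulin, FMOD, which guides fibril assembly, had 335 and 81 counts (-1.85 [-2.23, -1.51]). Osteoglycin, OGN, had 133 and 34 counts (-1.77 [-2.37, -1.23]). Lumican, LUM, a keratan sulfate proteoglycan that regulates fibril diameter, had 438 and 130 counts (-1.56 [-1.86, -1.28]). These 4 genes formed the low end of the family. Prolargin, PRELP, which links matrix to basement membrane, had 822 and 368 counts (-0.97 [-1.15, -0.79]). Decorin, DCN, which binds fibrillar collagen and TGF-beta, had 7813 and 3714 (513 and 278 CPM), 1.85-fold lower at -0.89 [-0.94, -0.83]. Its close relative biglycan, BGN, had 152 and 114 counts, and its ratio of -0.23 [-0.59, 0.13] held 0.

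Decorin and biglycan both carry chondroitin or dermatan sulfate chains and share a fold, yet their ratios differed. Per BGN count there were 51.4 lean and 32.6 non-lean DCN counts, a log2 change of -0.66 [-1.02, -0.29]. FMOD and PRELP, which are neighbours on chromosome 1 in the gene order of the T2T-MFA8v1.1 assembly, differed by -0.89 [-1.30, -0.49]. LUM and FMOD did not differ beyond counting error, at 0.30 [-0.17, 0.77], and neither did OGN and ASPN, at 0.67 [-0.31, 1.71].

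Members of this family lie in clusters in that gene order. LUM and DCN are neighbours on chromosome 11 beside KERA and EPYC, keratocan and epiphycan. KERA had 16 lean and 0 non-lean counts, and EPYC had 0 in both. On chromosome 15, OGN and ASPN lie beside OMD and ECM2, and all 4 genes had point ratios below 0. OMD, osteomodulin, had 47 and 23 counts (-0.83 [-1.63, -0.10]), and ECM2 had 128 and 85 counts (-0.40 [-0.82, 0.0029]). CENPP, a centromere protein gene that overlaps OGN and ASPN there, went the other way with 55 and 82 counts (0.76 [0.25, 1.28]). The gene order of the assembly behind the files may differ.

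Elastic fibre genes were lower by very unequal amounts. Of the 13 tested, 12 had intervals below 0, 7 were called 2-fold lower, and the median was -1.001. Fibrillin-1, FBN1, the backbone of microfibrils, had 1920 lean and 358 non-lean counts (126 and 26.8 CPM), 4.71-fold lower at -2.23 [-2.40, -2.07]. The microfibril-associated glycoproteins were lower by less. MFAP5 had 1386 and 469 counts (-1.38 [-1.53, -1.22]), MFAP4 had 1638 and 643 (-1.16 [-1.30, -1.03]), and MFAP2 had 92 and 32 (-1.32 [-1.97, -0.74]). The change in FBN1 relative to MFAP5 was -0.86 [-1.09, -0.63], while MFAP2 and MFAP5 did not differ beyond counting error (0.04 [-0.61, 0.66]).

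Elastin itself, ELN, had 14 and 4 counts, and fibrillin-2, FBN2, had 7 and 2. Both were below the filter, and their intervals, -1.50 [-3.68, 0.05] and -1.40 [-4.92, 0.77], held 0.

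The fibulins, which join elastin to microfibrils and basement membrane, split within the family. FBLN1 had 345 and 76 counts (-1.99 [-2.37, -1.63]), FBLN2 had 2183 and 971 (-0.98 [-1.09, -0.87]), and FBLN5 had 406 and 178 (-1.001 [-1.27, -0.75]). FBLN1 was lower relative to FBLN2 by a log2 change of -1.01 [-1.41, -0.63], and FBLN2 and FBLN5 did not differ beyond counting error (0.02 [-0.26, 0.31]). EFEMP1 and EFEMP2, fibulin-3 and fibulin-4, stood furthest apart of the 30 pairs. EFEMP1 had 382 and 71 counts, 4.73-fold lower at -2.23 [-2.63, -1.87]. EFEMP2, which brings lysyl oxidase to elastin, had 286 and 247 counts (18.8 and 18.5 CPM), and its ratio of -0.025 [-0.28, 0.23] held 0. Per EFEMP2 count there were 1.34 lean and 0.287 non-lean EFEMP1 counts, a log2 change of -2.21 [-2.68, -1.76].

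The 4 latent TGF-beta binding proteins were lower by less than 2-fold. LTBP4 had 4326 and 2227 counts (284 and 167 CPM; -0.77 [-0.85, -0.70]), and LTBP1 had 258 and 144 (-0.65 [-0.96, -0.36]). LTBP3 had 610 and 397 counts (-0.43 [-0.62, -0.25]), and LTBP2, which does not bind latent TGF-beta and acts on microfibrils, had 177 and 119 (-0.38 [-0.73, -0.04]). All 4 intervals lay below 0, but with total counts that of LTBP2 held 0 (-0.24 [-0.59, 0.099]). FBN1, of the same protein superfamily, was lower relative to LTBP4 by -1.47 [-1.65, -1.28].

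Adhesive and matricellular genes, whose products join cells to matrix or modulate that contact, had 10 of 12 tested members called 2-fold lower, 11 of 12 intervals below 0 and a median of -1.47. FNDC1, a fibronectin type III domain protein, had 653 lean and 68 non-lean counts (42.9 and 5.09 CPM). It was 8.44-fold lower at -3.07 [-3.46, -2.71], the lowest of the tested members. Fibronectin, FN1, had 1860 and 525 counts (-1.64 [-1.78, -1.50]). CILP, a cartilage intermediate layer protein also known from heart fibroblasts, had 1647 and 370 (-1.97 [-2.13, -1.80]).

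Tenascin-X, TNXB, which binds collagen fibrils and is needed for their mechanical strength, had 6796 and 2438 counts (447 and 182 CPM; -1.29 [-1.36, -1.23]). Tenascin-C, TNC, a protein of tendon and of repair, had 55 and 22 counts (-1.12 [-1.92, -0.40]). The tenascins did not differ from each other beyond counting error (-0.16 [-0.90, 0.63]). The hyaluronan-binding proteoglycan versican, VCAN, had 131 and 40 counts (-1.51 [-2.07, -1.004]).

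The 4 thrombospondins among the 44 genes were called 2-fold lower, while THBS3, outside the 44, had 184 and 126 counts (-0.36 [-0.70, -0.02]) and was not. THBS1, an activator of latent TGF-beta, had 118 and 38 counts (-1.44 [-2.02, -0.91]), and THBS2 had 120 and 35 (-1.58 [-2.18, -1.04]). THBS4, of tendon and muscle, had 1726 and 668 counts (-1.18 [-1.31, -1.05]), and COMP, the thrombospondin of cartilage and tendon, had 356 and 82 (-1.92 [-2.30, -1.58]). COMP was lower relative to THBS4, with 4.85 lean and 8.15 non-lean THBS4 counts per COMP count, a log2 change of 0.75 [0.37, 1.14].

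The calcium-binding matricellular protein SPARC and dermatopontin, DPT, were the members of this role that were not called. SPARC had 3762 and 2394 counts (247 and 179 CPM; -0.47 [-0.54, -0.39]). DPT, a decorin-binding protein, had 874 and 698 (57.4 and 52.2 CPM), and its ratio of -0.14 [-0.28, 0.0074] held 0. Periostin, POSTN, a matrix protein of healing tissue, had 11 lean and 0 non-lean counts. Against a floor of 3 counts per library, and with the lean count taken as exact, it was at least 3.22-fold lower. Its counting interval, which also covers error in the lean count, reached up to a log2 ratio of -1.14, and it was below the filter.

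Crosslinking genes were lower by less, with a median of -0.86 over 4 tested members and 1 of 4 called 2-fold lower, although all 4 intervals lay below 0. With total counts the interval of LOXL2 held 0 (-0.35 [-0.73, 0.016]). Lysyl oxidase, LOX, had 64 lean and 18 non-lean counts (4.21 and 1.35 CPM; -1.62 [-2.49, -0.87]). Its relatives LOXL1, which acts on elastin, and LOXL2, which acts on basement membrane collagen, had 326 and 173 counts (-0.73 [-1.002, -0.46]) and 159 and 99 counts (-0.49 [-0.87, -0.13]). LOX was lower relative to LOXL2 by -1.14 [-2.07, -0.27] and relative to LOXL1 by -0.91 [-1.80, -0.09]. PCOLCE, which enhances removal of the procollagen C-propeptide, had 553 and 243 counts (-0.998 [-1.22, -0.78]).

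Other genes of collagen processing lie outside the 44. Of 23 tested, 13 intervals lay below 0, against 28.8% of all tested genes, and 2 above, against 25.8%. The 2 above include a gene with 459 and 460 counts, whose lower bound was only 3.8e-05. Of the 23, 6 were called 2-fold lower, against 7.16%, and the median was -0.63. PCOLCE2, the relative of PCOLCE, had 229 and 35 counts and was 5.75-fold lower at -2.51 [-3.08, -2.01]. The procollagen N-proteinase ADAMTS2 had 145 and 42 counts (-1.59 [-2.13, -1.10]), and LOXL4 had 125 and 49 (-1.16 [-1.67, -0.68]). The C-proteinase BMP1, whose action PCOLCE enhances, had 194 and 167 counts, and its ratio of -0.03 [-0.34, 0.28] held 0.

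Metalloproteinases and their inhibitors were lower together. All 5 intervals lay below 0, 4 of 5 genes were called 2-fold lower, and the median was -1.53. Gelatinase A, MMP2, had 1890 lean and 505 non-lean counts (124 and 37.8 CPM; -1.72 [-1.86, -1.58]). Its membrane-bound activator MMP14 had 358 and 99 counts (-1.66 [-2.004, -1.34]). TIMP2, which inhibits MMP2 and also joins it to MMP14 for activation, had 2243 and 680 (147 and 50.9 CPM; -1.53 [-1.66, -1.41]).

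The ratios among these 3 partners changed by less than counting error. Per MMP14 count there were 5.28 lean and 5.10 non-lean MMP2 counts, a log2 change of -0.05 [-0.41, 0.32]. The change in MMP2 relative to TIMP2 was -0.18 [-0.37, 0.0088], and that in MMP14 relative to TIMP2 was -0.13 [-0.49, 0.22].

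TIMP3, the inhibitor that is bound to the matrix, had 1358 and 487 counts (-1.29 [-1.45, -1.14]). TIMP1 had 368 and 212 counts (24.2 and 15.9 CPM) and was 1.53-fold lower at -0.61 [-0.86, -0.36]. Per TIMP1 count there were 5.14 lean and 2.38 non-lean MMP2 counts, a log2 change of -1.11 [-1.40, -0.82]. TIMP1 lies within SYN1, a neuronal gene, in the reference gene order, and SYN1 was given 1431 and 924 counts. Without strand, reads from a stretch that is exon in both genes cannot be told apart, and whether their exons overlap was not examined. TIMP3 lies within SYN3, which had 1 count in each library.

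Beyond the 44, other matrix proteases and inhibitors had a median of -0.52. Of 30 tested intervals, 18 lay below 0, against 28.8% of all tested genes, and 2 above, against 25.8%. MMP16, RECK and MMP19 were the lowest, at -1.65, -1.53 and -1.40, where RECK is a membrane inhibitor of metalloproteinases. ADAMTS8 had 13 and 36 counts and was called 2-fold higher (1.62 [0.71, 2.695]). TIMP4, the remaining inhibitor of the TIMP family, had 74 and 70 counts, and its ratio of 0.11 [-0.39, 0.60] held 0. MMP1, MMP7, MMP8, MMP10 and MMP12 had 0 counts in both libraries.

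The make-up of the matrix transcripts differed between the libraries as well as their sum. Shares of the summed counts of the 44 genes do not depend on scaling, but they do not allow for transcript length, so they compare a gene with itself between libraries. Proteases and inhibitors took 12.6% of the lean matrix counts (12.3 to 12.9, an exact 95% interval, as are those that follow) and 9.77% of the non-lean ones (9.37 to 10.2). The proteoglycans took 19.9% (19.5 to 20.2) and 21.97% (21.4 to 22.5), most of it DCN, at 15.9% and 18.3%. Within this role LUM, FMOD, OGN and ASPN had smaller shares in the non-lean library, and BGN and PRELP larger ones. The intervals of OGN and of PRELP overlapped between the libraries. The shares of the adhesive proteins, 36.8% (36.3 to 37.2) and 36.4% (35.7 to 37.0), and of the elastic fibre genes, 28.5% (28.1 to 28.9) and 29.3% (28.6 to 29.9), had overlapping intervals. Crosslinkers took 2.24% (2.11 to 2.37) and 2.63% (2.41 to 2.86), whose intervals did not overlap.

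**Figure D3:**
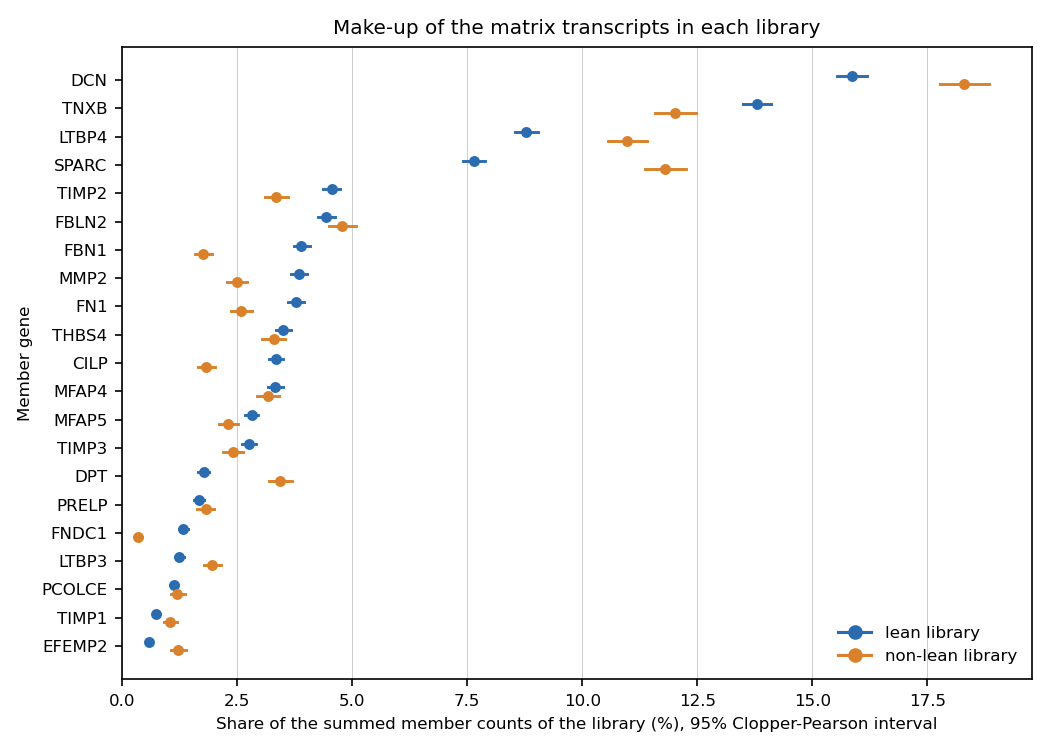
Share of the summed counts of the 44 genes taken by each gene with at least 1% in either library, for the lean (blue) and non-lean (orange) library; lines are 95% Clopper-Pearson intervals. SPARC and DCN have larger shares in the non-lean library, and FBN1, CILP and FNDC1 smaller ones.

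SPARC showed the largest gain in share among the 44, from 7.64% (7.41 to 7.88) of lean to 11.8% (11.4 to 12.3) of non-lean matrix counts. DCN went from 15.9% (15.5 to 16.2) to 18.3% (17.8 to 18.8), and DPT from 1.77% (1.66 to 1.90) to 3.44% (3.19 to 3.70). None of these 3 genes had a higher level with TMM scaling. The interval of DPT held 0, and with total counts its log2 ratio was 0.0039. With TMM scaling the log2 ratio of each of the 3 was above the -1.09 of the summed matrix counts. FBN1 went from 3.90% (3.73 to 4.07) to 1.76% (1.59 to 1.96), and FNDC1 from 1.33% (1.23 to 1.43) to 0.335% (0.260 to 0.425). The 5 members with the most lean counts, DCN, TNXB, LTBP4, SPARC and TIMP2, together took 50.6% (50.2 to 51.1) of the lean and 56.4% (55.8 to 57.1) of the non-lean matrix counts.

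Transcript models of the same gene pointed in different directions for 7 of the 14 genes in which at least 2 models could be compared. The files list 1 RefSeq model for 25 of the 44 genes and several for 19, and 14 genes had at least 2 models with 20 or more estimated counts over both libraries. Those 14 genes had 36 such models, of which 27 had a ratio below 0 and 9 above. The 9 belonged to FBLN2, FN1, LTBP3, LTBP4, PRELP, THBS4 and TNXB.

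**Figure D4:**
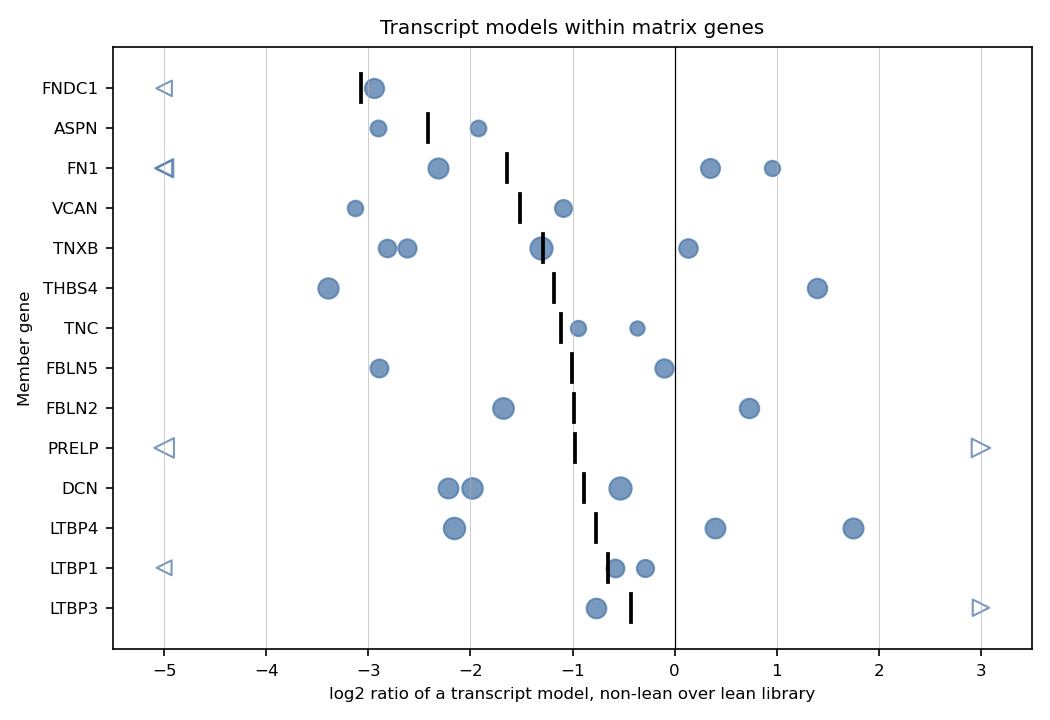
Log2 ratio (non-lean / lean) for each transcript model (circle, larger with more counts) of the 14 genes with at least 2 models of 20 or more estimated counts; the black bar is the ratio of the whole gene, and open triangles at the edges are models at 0 in a library. Models on both sides of 0 are seen for THBS4, LTBP4, FBLN2, FN1, PRELP, LTBP3 and TNXB.

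PRELP was the extreme case, since its first model had 822 lean and 0 non-lean estimated counts, and its other model had 0 lean and 368 non-lean. For THBS4 the leading model had 1491 and 124 estimated counts, and the other had 235 and 544. The 3 leading models of LTBP4 had 3486 and 685, 316 and 935, and 524 and 607. For FBLN2, the leading model had 1867 and 510 and the other had 316 and 461. In DCN all 3 models were lower, with 5254 and 3179, 1606 and 355, and 952 and 179. The estimation divides reads among models that share exons, and the error of that division is not in the files. The gene sums used above do not depend on the division among the models of a gene. Among the 24 tested genes with a single model, 21 intervals lay below 0, 15 genes were called 2-fold lower, and the median was -1.48.

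Genes of related processes outside the 44 were also lower more often than higher. The 7 pathway lists hold 138 tested genes, with a median of -0.42 and 113 point ratios below 0. Of the 138, 30 (21.7%) were called 2-fold lower, against 7.16% of all tested genes, and 3 higher, against 4.91%. The intervals of 78 (56.5%) lay below 0, against 28.8% of all tested genes, and 12 lay above, against 25.8%. Other matricellular genes stood lowest, with a median of -0.82 and 9 of 23 called 2-fold lower. Tenascin-W, TNN, had 39 and 4 counts and was 8.57-fold lower (-2.95 [-5.04, -1.63]). CCN3, a cysteine-rich signalling protein, had 95 and 20 counts (-2.03 [-2.84, -1.35]), and MXRA5 had 132 and 32 (-1.84 [-2.46, -1.29]). Osteopontin, SPP1, a matricellular phosphoprotein that macrophages also make, went the other way with 27 and 143 counts, 6.03-fold higher at 2.57 [1.99, 3.24]. SMOC2, a relative of SPARC that lies beside THBS2 in the gene order, had 361 and 376 counts (0.25 [0.03, 0.46]).

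Other proteoglycans had a median of -0.40, with 5 of 13 intervals below 0 and 2 above. Of the 13, 0 were called 2-fold lower, near the 7.16% of all tested genes. Perlecan, HSPG2, the large proteoglycan of basement membranes, had 3366 and 2856 counts (-0.05 [-0.12, 0.02]). Podocan, PODN, also a small leucine-rich proteoglycan, had 460 and 484 counts and an interval above 0 (0.26 [0.07, 0.45]). Chondroadherin, CHAD, of cartilage and tendon, had 1774 and 855 (-0.87 [-0.99, -0.75]). Other elastic fibre genes had a median of -0.25 over 8 tested. EMILIN2 was lowest with 208 and 51 counts (-1.83 [-2.31, -1.39]), while EMILIN1 had 400 and 382 (0.12 [-0.09, 0.33]).

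Genes that build the glycosaminoglycan chains of these proteoglycans had a median of -0.27, with 10 of 20 intervals below 0 and 0 above. Of all tested genes, 28.8% had intervals below 0 and 25.8% above. The lowest were XYLT1, which starts the chain, at -1.39 [-1.74, -1.06], and the dermatan sulfate enzymes DSE, at -1.22 [-1.74, -0.74], and CHST14, at -1.10 [-1.67, -0.56]. TGF-beta signalling genes had a median of -0.23, with 10 of 21 intervals below 0 and 3 above. Of the ligands, TGFB1 had 266 and 163 counts (-0.52 [-0.81, -0.23]), TGFB3 had 205 and 106 (-0.76 [-1.12, -0.42]), and TGFB2 had 231 and 209 (0.04 [-0.23, 0.32]). The receptor TGFBR2 was lowest with 521 and 177 counts (-1.37 [-1.63, -1.12]). The signal transducer SMAD3 had 1305 and 2143 counts (0.90 [0.80, 1.003]), and the integrin subunit ITGB6, which activates latent TGF-beta, had 154 and 273 (1.01 [0.72, 1.31]).

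**Figure D5:**
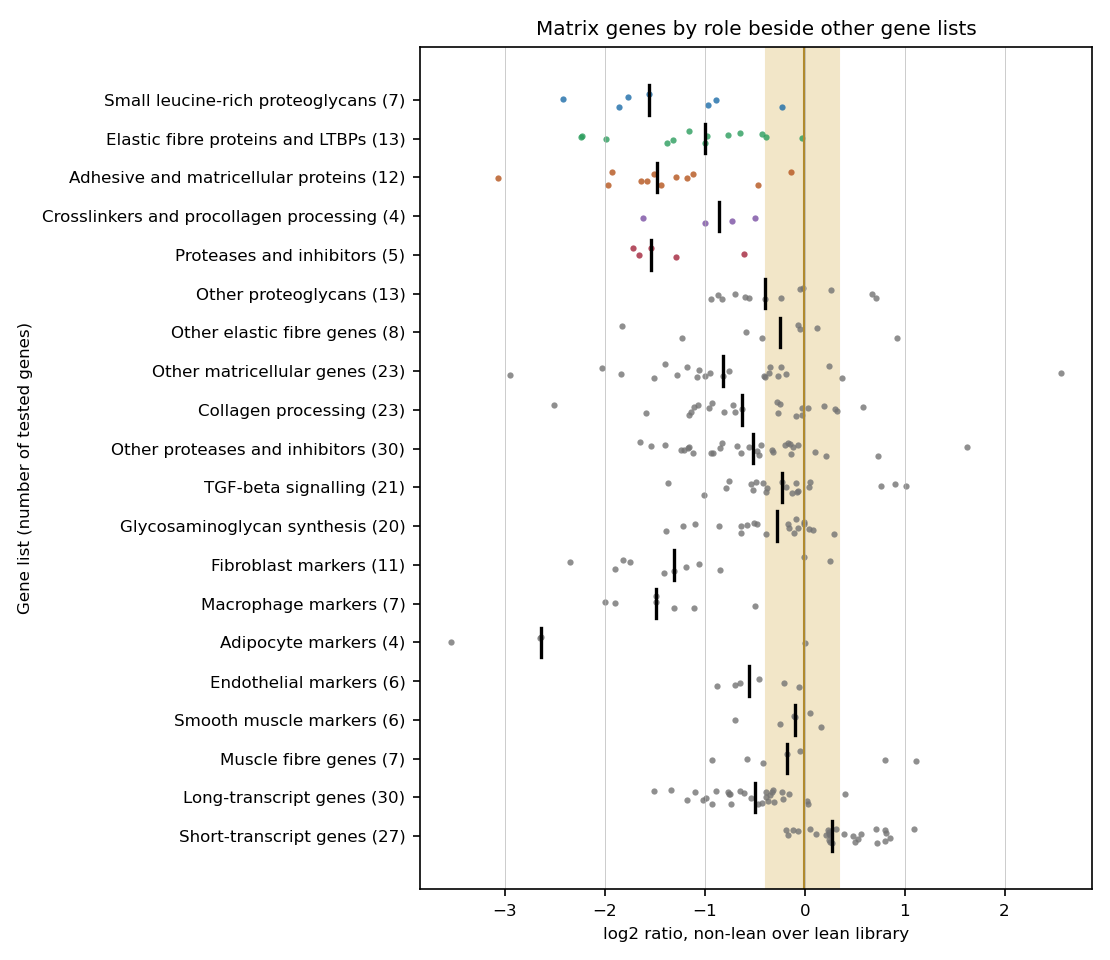
Log2 ratio (non-lean / lean) for tested genes (dots) of the 5 matrix roles (coloured) and of other gene lists (grey), with list medians as black bars; the shaded band spans the quartiles of all 13707 tested genes and the gold line is their median. The medians of the 5 matrix roles, between -1.56 and -0.86, lie left of the shaded band, and so do those of several other lists, among them the fibroblast (-1.31), macrophage (-1.48) and adipocyte (-2.64) markers.

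Markers of fibroblasts, the main source of these proteins, were lower beside the members. Of 11 tested fibroblast markers, 8 were called 2-fold lower, against 7.16% of all tested genes, and 1 interval lay above 0, against 25.8%. The summed level of the list was 603 (lean) and 320 (non-lean) CPM. The list includes collagen genes, which are matrix genes themselves, so it is not separate from the matrix result. COL1A1 was at 125 and 33.4 CPM, COL1A2 at 113 and 54.3, and COL3A1 at 120 and 34.0, all called 2-fold lower. PDGFRA, a receptor that marks muscle fibroblasts, had 82 and 21 counts (-1.75 [-2.55, -1.07]), and PI16, a marker of adventitial fibroblasts, had 316 and 54 (-2.35 [-2.81, -1.94]). COL1A1 had 1900 and 446 counts (-1.90), while FAP had 128 and 112 (-0.01 [-0.39, 0.37]) and SERPINF1 had 1947 and 2038 (0.25 [0.16, 0.34]). TCF21 was at 0 in the non-lean and at 2 counts in the lean library.

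Tendon cells are another source of COMP, THBS4 and FMOD, and the 4 matched markers of these cells summed to 122 and 65.7 CPM. CHAD, given above with the other proteoglycans, made up most of that sum, at 117 and 63.9 CPM. Of the remaining markers, TNMD had 61 and 22 counts (-1.26 [-2.06, -0.56]). MKX had 5 and 1 counts and KERA had 16 and 0, both below the filter. For the lists that follow, 28.8% of all tested genes had intervals below 0, 25.8% had intervals above, and 7.16% were called 2-fold lower. Macrophage markers summed to 86.8 and 30.1 CPM, with 6 of 7 tested called 2-fold lower and none at 0 in either library. Adipocyte markers summed to 130 and 112 CPM, of which CFD, at 1651 and 1453 counts, made up most, and 3 of 4 tested were called 2-fold lower. Endothelial markers summed to 244 and 180 CPM, with 5 of 6 intervals below 0 and 0 of 6 genes called. Smooth muscle markers summed to 206 and 187 CPM, with 2 of 6 intervals below 0, 1 above and 0 genes called, near the shares over all tested genes. Schwann cell markers summed to 62.6 and 33.7 CPM and satellite cell markers to 68.9 and 44.3 CPM, with 1 interval below 0 among the 2 and 3 tested. Muscle fibre genes, which check the labelled tissue, summed to 189810 and 143230 CPM. Actin of skeletal muscle, ACTA1, was at 80371 and 60127 CPM, and all 7 genes of this list were detected in both libraries. The list moved both ways, with 5 intervals below 0 and 2 above. Myosin heavy chain MYH1 of fast fibres was at 47038 and 24746 CPM, troponin T of slow fibres, TNNT1, at 1531 and 3315 CPM (1.11 [1.09, 1.14]), and myoglobin, MB, at 7646 and 13357 CPM (0.80 [0.79, 0.82]). The part of any of these cell types in the matrix result was not tested.

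Genes of long and of short transcripts differed between the libraries in opposite directions. Among 30 tested genes known for long transcripts, 26 intervals lay below 0, against 28.8% of all tested genes. Of the 30, 5 were called 2-fold lower, against 7.16%, and the median was -0.50. Among 27 tested genes known for short transcripts, 19 intervals lay above 0, against 25.8% of all tested genes, and the median was 0.28. Transcript lengths of the members were not used here, and the part of length in the matrix result was not tested.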

How the data were processed

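Per the file headers, each deposited table gives a transcript, a gene symbol and a count. Many of these deposited values are not whole and the library totals differ, so each deposited value was treated as an estimated count without normalization. RSEM 1.3.3, STAR 2.7.8a and Trim Galore 0.6.6 are listed, without their roles, in the submitters' processing notes. The build, annotation and filters were not given in the sources used here. Per the labels' protocols, the RNA was oligo(dT)-selected and read on a BGIseq500, with no strand-marking step named and both single-end and paired-end reads mentioned.

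The 76183 transcript rows were summed per gene and rounded. Of 24 symbols turned into dates, genes were separated by transcript accession. Scaling used the trimmed mean of M-values (edgeR 4.0.16, R 4.3.3), with factors of 0.952 (lean) and 1.05 (non-lean). Log2 ratios have a prior count of 0.5, and intervals are exact Clopper-Pearson intervals of the split of the summed count (Python 3.11.15, scipy 1.17.1). Changes in the ratio of paired genes have exact conditional intervals. The libraries were amplified by PCR with no molecular identifier named, so reads are not independent molecules, and every interval or floor covers counting error alone. The floor of 3 counts was 0.197 (lean) and 0.224 (non-lean) CPM. The interval code was tested on simulated data with counting error alone, so that test does not bear on differences between animals or libraries.

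The 44 members, the lists and the pairs were chosen with earlier results of these data known, and the length lists were added after the files had been examined. All members could be named, and from each other list the 3 highest, the 3 lowest and the 2 with the most counts, with every gene of the LOX, MMP and TIMP, TGF-beta ligand, fibroblast and tendon sets; BMP1, THBS3, ECM2, EPYC, CENPP, SYN1 and SYN3 were named after their values were seen. Of 343 listed genes 339 were matched, 11 of them by transcript accession or gene number through the RefSeq table of T2T-MFA8v1.1; CCN2, SCX, DYNC1H1 and POLR2L are not analysed here. Alternatives were total counts, DESeq2 1.42.0 size factors, other filters, a prior count of 2, and the leading transcript alone.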

Additional observations from a re-analysis of the deposited data

How the results depend on the processing

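No paired analysis was possible because each group has 1 library and the result comes from no test, and for the same reason no replicate could be left out. The count of members called 2-fold lower was 26 of 41 as reported and 22 to 29 over the 6 alternatives. The 22 were of 37 tested with the filter at 5 CPM, 27 were of 44 without a filter, and the other alternatives had 41 tested. The count called higher was 0 in all of them. Shares over all tested genes were computed for the reported and the total-count scaling alone. Scaling by total counts moved the median of all tested genes by 0.14, and the median of the members then was -1.15 and that of the proteases and inhibitors -1.39. With a filter at a mean of 5 CPM the median of the proteoglycans was -1.27. With the leading transcript of each gene alone the median of the members was -1.44, because counts of the other models are left out. The 8 members that left their counting interval were PRELP (-10.50, with 0 non-lean counts in that model, so the value rests on the prior count), THBS4 (-3.40), FN1 (-2.32), LTBP4 (-2.16), FBLN2 (-1.68), LTBP3 (-0.77), DCN (-0.54) and FBLN5 (-0.11). PRELP, LTBP4 and FBLN2 thereby gained the 2-fold call, and FBLN5 and TNC (-0.94) lost it with intervals that hold 0. FBLN5 also lost it with a prior count of 2 (-0.99), and FBLN5 (-0.86) and TNC (-0.97) with total counts, under which the intervals of LTBP2 and LOXL2 held 0. With DESeq2 size factors PRELP, FBLN2 and PCOLCE gained it, at -1.003, -1.01 and -1.03, and the interval of DPT lay below 0. EFEMP2 and DPT changed sign with total counts, both with intervals that hold 0; no other member did under any alternative run. With total counts 10 of 44 members left their counting interval, and with DESeq2 size factors or a prior count of 2, 0 of 44 did. Depth limits ELN, FBN2 and POSTN, which have 18, 9 and 11 counts over both libraries.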
